A study of Homo sapiens with 9 samples.

Results

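The genes examined here are 10 members of the BCL2 family, which decide whether the outer membrane of the mitochondrion is opened during apoptosis. They were taken by name, whatever their expression, from 56865 genes summed in each library, and all 10 were among the 13914 genes tested. They are the effectors BAX and BAK1, the BH3-only genes BID, BIK, BAD and BCL2L11 (which codes for BIM), and the pro-survival genes BCL2L1 (BCL-xL), BCL2L2 (BCL-w), MCL1 and BCL2. The study sequenced poly(A)-selected RNA of BxPC3, a human pancreatic adenocarcinoma cell line, after vehicle (DMSO), MS172 or PK9328, with 3 libraries in each group. All 9 libraries share 1 labelled genotype. The protocol states 5 µM and 6 h for the compounds, but it names MS78 where titles and treatment labels name MS172. Nothing in the labels ties the libraries of a group to separate cultures, and the p-values cover no more than the variation among the libraries, which may be technical.

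BCL2 proteins act by binding each other. BH3-only proteins respond to damage or stress, bind the groove of the pro-survival proteins and, for BID and BIM, can also activate the effectors. Free BAX and BAK then form oligomers that release cytochrome c, and cytochrome c assembles the APAF1 apoptosome that activates caspases. Pancreatic cancer cells are known to rely on BCL-xL and MCL-1 among the pro-survival members.

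Libraries held 24077353 to 28031886 estimated reads. The labelled cell type was checked against markers: 9 of 16 epithelial and ductal genes lay under 1 CPM (counts per 1000000 estimated reads, after TMM scaling for RNA composition) in every library. The adhesion gene EPCAM reached at most 0.0745 CPM and the keratin KRT7 at most 0.103 CPM, so these defining epithelial markers were near 0. The epithelial KRT8 (651 to 864 CPM), KRT18 (710 to 984 CPM) and KRT19 (290 to 367 CPM) were abundant. The epithelial CDH1, ESRP1 and GRHL2 reached at most 0.0417, 0.0834 and 0.0388 CPM. Of 10 mesenchymal genes, 4 (CDH2, ZEB2, TWIST1 and FN1) lay under 1 CPM in every library, while VIM stood at 8080 to 10383 CPM. The mesenchymal COL1A2 (1799 to 2548 CPM) and ZEB1 (80.1 to 103 CPM) were also expressed. Endothelial markers (3 of 3) and acinar and endocrine markers (4 of 4) were under 1 CPM in every library. Of 5 leukocyte markers 3 were under 1 CPM in every library, and CD68 stood at 17.5 to 23.7 CPM. The markers were thus mixed and do not establish the labelled identity of the cells, which was not tested further. Summed epithelial markers ranged from 2167 to 2336 CPM with DMSO, 2630 to 2794 CPM with MS172 and 2020 to 2100 CPM with PK9328, and their part in the results below was not tested. All 3 PK9328 libraries had shorter fragments (250 to 263 bases) than the DMSO (281 to 289 bases) and MS172 (274 to 293 bases) libraries.

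The isoforms of MCL1 and BCL2L1 that code for different proteins part at splice junctions inside the coding sequence. The following 40 bases of each transcript from GENCODE 29, 5′ to 3′, show where MCL1-204 leaves MCL1-202 and where BCL2L1-202, which codes for BCL-xS, leaves BCL2L1-201, which codes for BCL-xL. Lower case marks the 20 shared bases, which end at chr1:150579423 for MCL1 and at chr20:31721844 for BCL2L1 (GRCh38, minus strand of both chromosomes), and capitals mark the bases that follow.
MCL1-202: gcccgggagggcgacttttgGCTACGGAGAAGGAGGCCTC
MCL1-204: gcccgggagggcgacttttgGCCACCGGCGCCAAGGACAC
BCL2L1-201: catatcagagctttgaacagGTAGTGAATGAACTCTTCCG
BCL2L1-202: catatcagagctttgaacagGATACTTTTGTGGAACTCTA
MCL1-204 skips 459 coding bases of the first exon (chr1:150578964-150579422) and keeps 197 of the 350 codons of MCL1-202. It also has 148 noncoding bases of its own at the 5′ end (chr1:150579591-150579738) and 5 at the 3′ end. BCL2L1-202 keeps 170 of the 233 codons of BCL2L1-201.

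Promoter windows from RefSeq (GRCh38.p14, 250 bases before to 50 after a gene's start) were found for 7 of the 10 members, in 13 windows, and were searched on both strands for motifs. Those reported here are the ATF4-type element TGATGNAA, the STAT element TTCNNNGAA, the E-box CACGTG, and the kappa-B element by its consensus. The effector gene BAX, which was higher with MS172 in the results below, is shown as far as the window lies upstream of any annotated exon, with motif matches in capitals. The BAX stretch (chr19:48954625-48954814, plus strand) carries the E-box.
BAX: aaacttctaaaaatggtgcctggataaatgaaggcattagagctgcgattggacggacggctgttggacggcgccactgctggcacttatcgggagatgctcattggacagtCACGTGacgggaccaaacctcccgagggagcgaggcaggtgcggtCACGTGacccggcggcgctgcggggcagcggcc
The E-box was also found in 2 windows of BID, which overlap and hold the same site. BID was not called with MS172, and the windows of BAK1, BAD and BCL2L1, which were called higher, held no E-box. A link of the E-box to expression was not tested. Of all 35116 windows, 7.26% held the E-box. No window of a member held the ATF4-type element, the STAT element or the kappa-B element, which 3.62%, 7.66% and 5.91% of all windows hold. A match is a description of the letters and not of binding.

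Per length, BAX was the most abundant member in these cells. Levels of different genes are compared in TPM (transcripts per 1000000, corrected for transcript length), where BAX stood at 333, 324 and 322 TPM in the DMSO libraries and so at 47.8% of the summed TPM of the 10 genes. BAX lay 4.32-fold above BCL2L1 (75.6 ± 4.2 TPM, SD, n = 3), the next in order. Of the BAX value, 19.9% to 27.6% in a library came from annotated transcripts under 500 bases, for which TPM is uncertain, and without them BAX remained the highest at 239 to 258 TPM.

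BCL2L1, BID (75.0 TPM), MCL1 (71.5 TPM) and BAD (71.3 TPM) followed with DMSO, and each overlapped its neighbour in that order. BAK1 came next at 50.5 ± 1.0 TPM, apart from BAD and from BCL2L2 (6.79 ± 0.54 TPM). BIK (1.93 TPM), BCL2 (1.68 TPM) and BCL2L11 (1.52 TPM) lay lowest, and neighbouring ranges among these overlapped. BCL2, the gene that gives the family its name, was therefore expressed far below BCL2L1 and MCL1. The first and second places and those of BAK1 and BCL2L2 were the same in all 3 groups, while the other members traded places with neighbours (MCL1 was number 4 with DMSO and number 5 with MS172). Of 13 further family genes, BCL2L12 (93.8 TPM) and BCL2L13 (79.9 TPM) reached the level of the second tier, and the BH3-only gene BBC3 stood at 23.7 TPM. BCL2A1 and BCL2L10 had no estimated read in any library, which allows up to 0.102 to 0.133 CPM as counting error only.

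**Figure D1:**
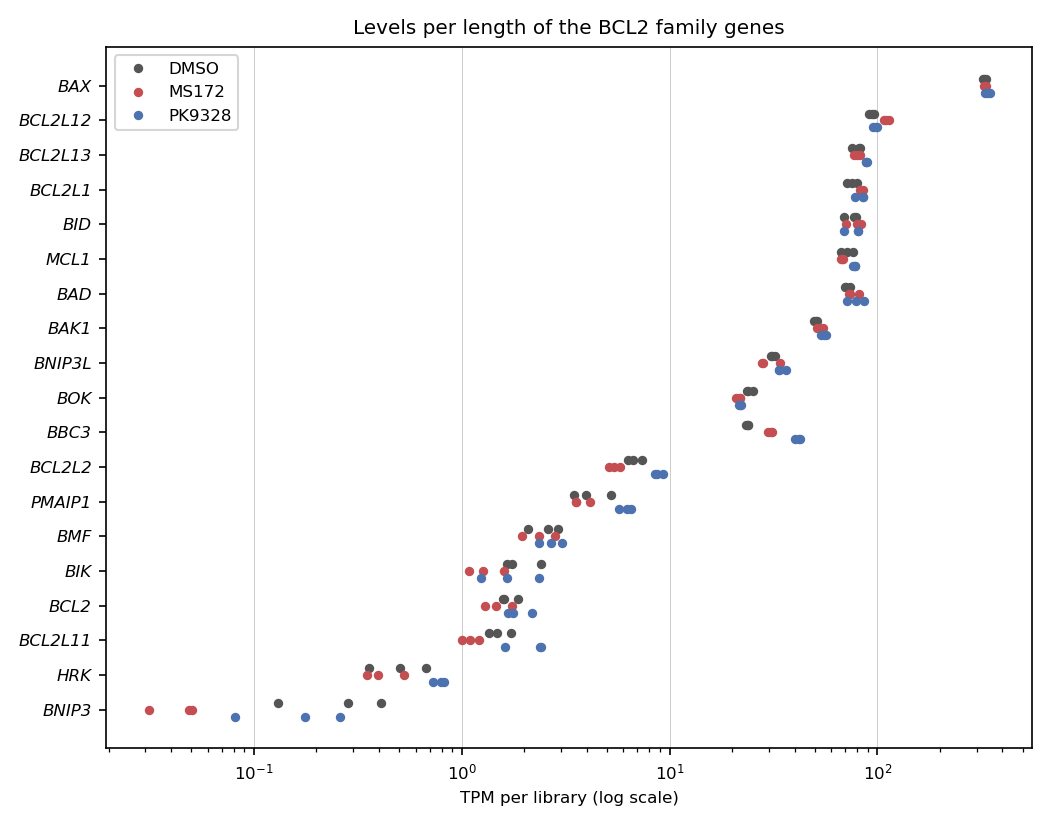
TPM per library on a log axis for the BCL2 family genes with a value above 0 in all 9 libraries, coloured by group and ordered by the DMSO mean. BAX lies alone at the top (322 to 348 TPM over all libraries), a tier from BCL2L12 to BAK1 follows, and BCL2, BIK and BCL2L11 stay under 2.5 TPM.

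Against DMSO, 4 members rose and 1 fell with MS172, where 35.1% of all genes tested were called (17.9% higher and 17.2% lower). Both effectors, the BH3-only gene BAD and the pro-survival BCL2L1 rose, and BCL2L2 fell. With PK9328, the 2 members BCL2L1 and BCL2L2 rose, against 15.5% of all genes (7.98% higher and 7.48% lower). The median log2 fold change of the 10 members was 0.09 with MS172 and 0.04 with PK9328, beside -0.02 and 0.00 for all genes tested. Both comparisons share the DMSO libraries, and in such bulk RNA fewer expressing cells and less RNA per cell cannot be told apart. TMM factors were 0.940 to 0.949 in MS172 and 1.00 to 1.05 in the other libraries, and scaling to library totals instead moved the median of all genes with MS172 to -0.13. Under that scaling 980 genes were called higher and 4474 lower, in place of 2486 and 2398, so the changes below are relative to TMM scaling and calls lost under library totals are named for members and counted for the gene lists.

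**Figure D2:**
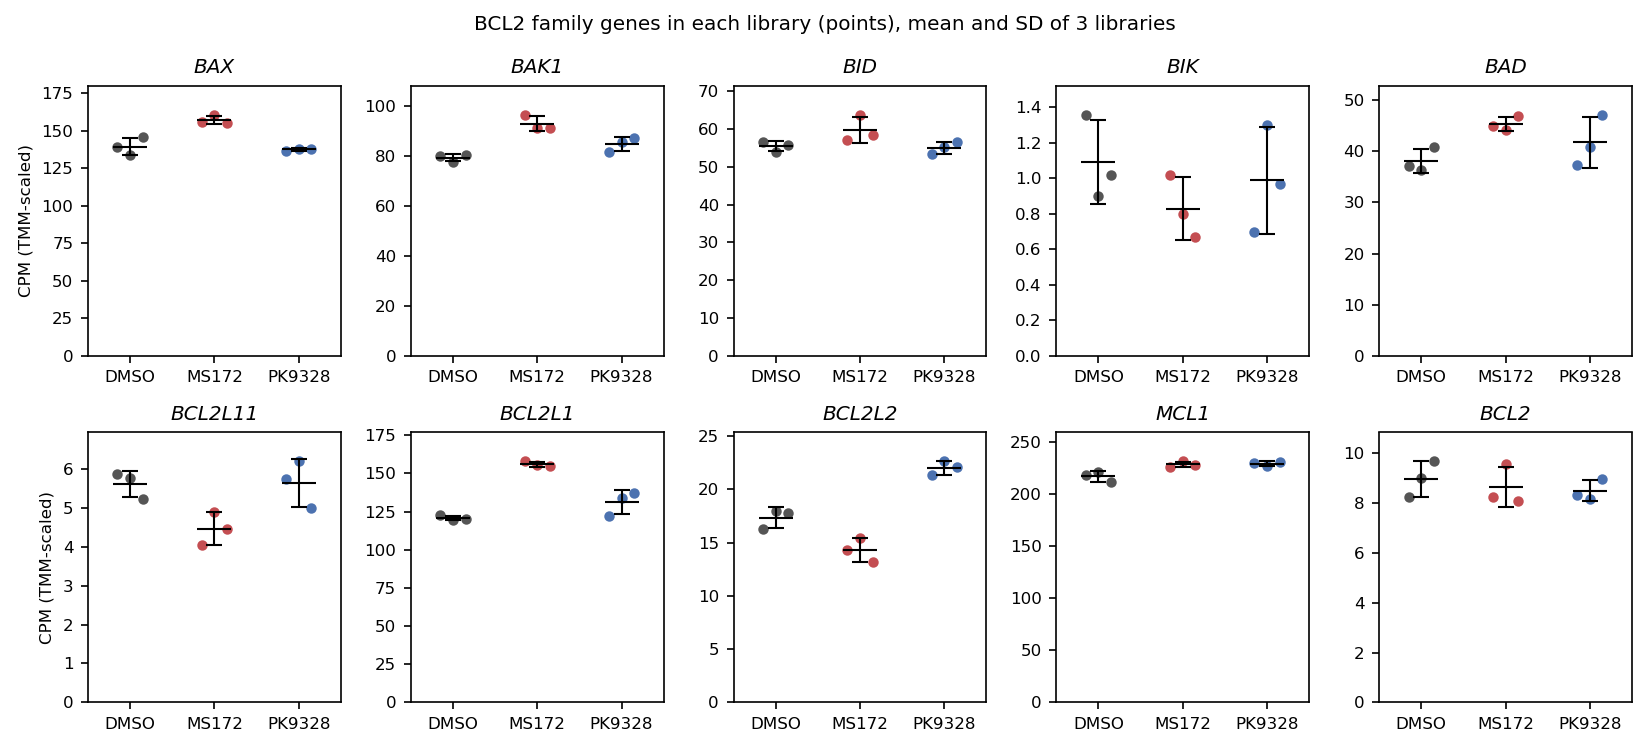
CPM of the 10 members in each library (points) with the mean and SD of 3 libraries (bars), with every axis starting at 0. BCL2L1 separates MS172 (155 to 158 CPM) from both other groups, as do BAX, BID and BCL2L11. BCL2L2 and BAK1 separate all 3 groups without overlap. The share of all genes that separate in these ways was not counted.

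Of the effectors, BAX stood at 139, 134 and 146 CPM with DMSO, at 156, 161 and 155 CPM with MS172 and at 136, 138 and 138 CPM with PK9328. Every MS172 library lay above every other library, and the PK9328 libraries lay inside the DMSO range. BAX rose with MS172 by a log2 fold change of 0.17 ± 0.04 (SE; adjusted p = 0.000596). With PK9328 the log2 fold change was -0.02, with a 95% interval of -0.10 to 0.06 (adjusted p = 0.796). BAK1, which sits in the mitochondrial membrane of healthy cells, had 80.0, 77.8 and 80.4 CPM with DMSO, 96.6, 91.2 and 91.3 CPM with MS172 and 81.7, 85.7 and 87.2 CPM with PK9328. The groups did not overlap, with PK9328 between the other two. BAK1 rose with MS172 by 0.23 ± 0.04 on the log2 scale (adjusted p = 9.4e-05), and with PK9328 its value of 0.10 was not called (adjusted p = 0.128). Under library totals BAK1 stayed called with MS172 (0.12, adjusted p = 0.0230) and BAX did not (0.07, adjusted p = 0.148). BAX also lost its call with an offset for GC content and length (0.06, adjusted p = 0.117). With PK9328, BAK1 was called under library totals (0.13, adjusted p = 0.0360) and with that offset (0.12, adjusted p = 0.0215).

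Among the BH3-only genes, BAD, which binds BCL-xL when it is not phosphorylated, had 37.1, 36.4 and 40.8 CPM with DMSO and 44.8, 44.2 and 47.0 CPM with MS172. The 2 groups did not overlap, and BAD rose by 0.25 ± 0.07 on the log2 scale (adjusted p = 0.00689). PK9328 libraries spread over both ranges, with 37.3, 40.9 and 47.1 CPM (log2 fold change 0.13, adjusted p = 0.210). The MS172 call on BAD was lost without DMSO library 2 (0.22, adjusted p = 0.0514), under library totals (0.15, adjusted p = 0.0837) and with the GC and length offset (0.12, adjusted p = 0.108). The PK9328 value was called without PK9328 library 1 (0.21, adjusted p = 0.0368).

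BCL2L11 codes for BIM, a direct activator of BAX and BAK. It had 5.85, 5.76 and 5.22 CPM with DMSO, 4.04, 4.88 and 4.46 CPM with MS172 and 5.73, 6.19 and 4.99 CPM with PK9328. All 3 MS172 libraries lay below all others. Against DMSO the log2 fold change of -0.33 ± 0.13 missed the threshold (adjusted p = 0.0508) and it passed under library totals (-0.44, adjusted p = 0.0103). It also passed without DMSO library 3, MS172 library 2 or PK9328 library 3 (adjusted p = 0.0492, 0.0440 and 0.0499). Further passes came with a filter of 1 CPM in 3 libraries (-0.34, adjusted p = 0.0451) and fragment length as a covariate (-0.35, adjusted p = 0.0326). In all, 6 of 19 alternatives passed.

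BID, which caspase-8 cleaves to link death receptors to mitochondria, ranged from 54.0 to 56.6 CPM with DMSO, 57.2 to 63.7 CPM with MS172 and 53.3 to 56.6 CPM with PK9328. The MS172 libraries were the highest, but its log2 fold change of 0.11 was not called (adjusted p = 0.0939) and was -0.00 under library totals. BIK, a BH3-only gene of the endoplasmic reticulum, rested on 16 to 38 estimated reads per library. Its groups overlapped, and the 95% interval with MS172 ran from -1.05 to 0.27, so that a difference of this size was not detectable at this depth.

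BCL2L1 showed the largest fold change among the 5 members called with MS172. Its values were 123, 120 and 120 CPM with DMSO, 158, 155 and 155 CPM with MS172 and 122, 134 and 137 CPM with PK9328. MS172 stood apart from both other groups, while PK9328 library 1 lay inside the DMSO range and its other 2 libraries above it. BCL2L1 rose with MS172 by 0.37 ± 0.04 on the log2 scale, or 1.29-fold (adjusted p = 2.33e-08), and it stayed called in all 19 alternatives, with 0.26 as the lowest value. With PK9328 it rose by 0.12 ± 0.04 (adjusted p = 0.0419), and this call held in 6 of 19 alternatives. It was lost on leaving out any DMSO library, MS172 library 1 or 2, or PK9328 library 2 or 3 (log2 fold changes 0.09 to 0.13, adjusted p = 0.0534 to 0.219).

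BCL2L2 moved in opposite directions with the 2 compounds. BCL-w is a pro-survival protein that resembles BCL-xL. BCL2L2 had 16.2, 18.0 and 17.8 CPM with DMSO, 14.3, 15.4 and 13.2 CPM with MS172 and 21.4, 22.6 and 22.1 CPM with PK9328. The 3 groups did not overlap. It fell by 0.28 on the log2 scale with MS172 (SE 0.08, adjusted p = 0.00496) and rose by 0.34 ± 0.07 with PK9328 (adjusted p = 0.00115). With fragment length as a covariate the PK9328 value was 0.31 and was not called (adjusted p = 0.415), in a fit that called 175 genes in all in place of 2151. Counts rebuilt from length-scaled TPM gave -0.16 with MS172 (adjusted p = 0.191). BCL2L2 (chr14:23298790-23311759) overlaps the readthrough gene BCL2L2-PABPN1, which had 0.112 to 1.25 CPM, so the split of reads between them is uncertain.

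MCL1, a short-lived pro-survival protein, was the member with the most reads (5192 to 6651 per library). It had 219, 221 and 212 CPM with DMSO, 226, 231 and 228 CPM with MS172 and 230, 227 and 231 CPM with PK9328. Both compounds lay above DMSO in every library, by log2 fold changes of 0.07 and 0.08 that were not called (adjusted p = 0.0926 and 0.120). The calls on those 2 values changed with the processing. With MS172 the value was -0.03 under library totals and not called (adjusted p = 0.479). It was called with the GC and length offset (0.13, adjusted p = 0.000505) and by DESeq2 (0.09, adjusted p = 0.0403). With PK9328 it was called under library totals (0.11, adjusted p = 0.0261) and with the offset (0.08, adjusted p = 0.0391). For BCL2 all groups overlapped (8.09 to 9.66 CPM over the 9 libraries), with 95% intervals of -0.27 to 0.16 for MS172 and -0.29 to 0.13 for PK9328.

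**Figure D3:**
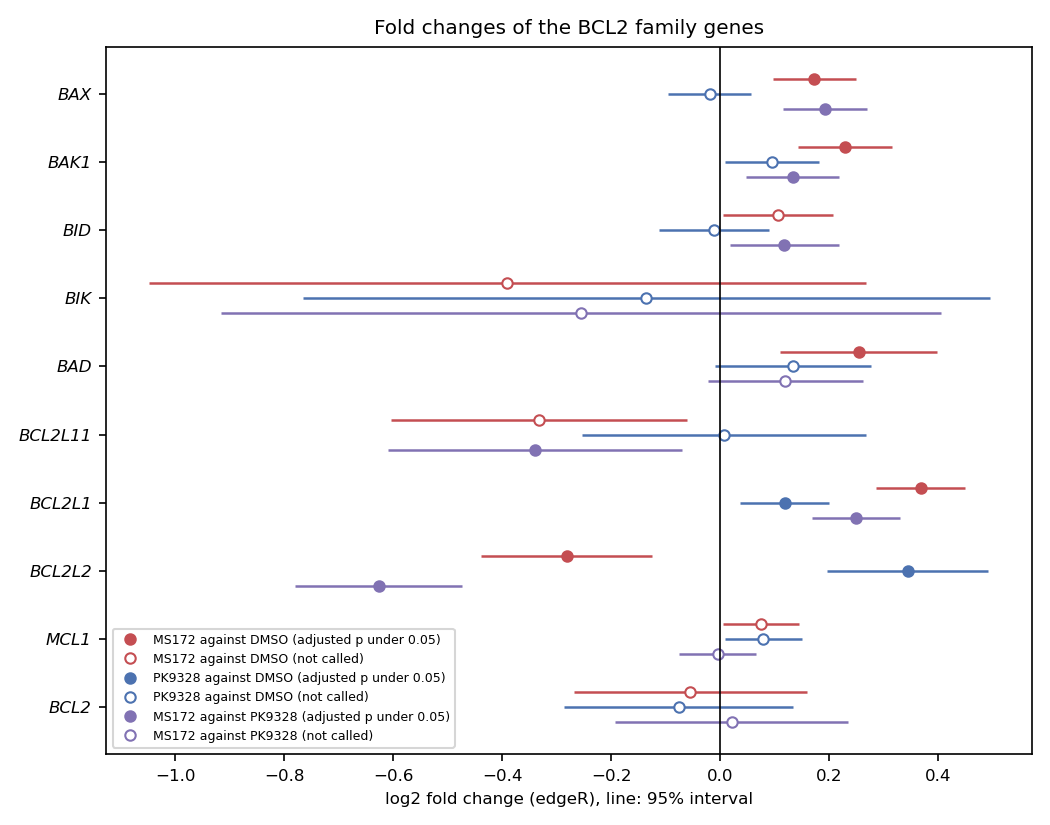
Log2 fold changes of the 10 members in 3 comparisons (points, filled where the adjusted p is under 0.05) with 95% intervals (lines). BCL2L2 lies below 0 with MS172 and above 0 with PK9328, and the intervals of BIK are the widest.

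MS172 and PK9328 were compared with each other for the 10 genes at the 5 µM and 6 h that the protocol gives, with p-values adjusted over all 13914 genes. MS172 was higher for BAX, BAK1, BID and BCL2L1 and lower for BCL2L11 and BCL2L2. Of all genes, 47.7% were called in this comparison (23.3% higher and 24.4% lower with MS172). BCL2L2 differed most among the called members, by -0.63 ± 0.07 on the log2 scale (adjusted p = 5.51e-08), and BCL2L1 was higher by 0.25 ± 0.04 (adjusted p = 5.91e-06). Both held in all 19 alternatives. BAX was higher by 0.19 ± 0.04 (adjusted p = 9.52e-05), and it lost the call under library totals (0.05, adjusted p = 0.236) and with the fragment length covariate (0.20, adjusted p = 0.0841).

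The other calls between the compounds were close to the threshold or turned with the scaling. BAK1 was higher with MS172 by 0.13 ± 0.04 (adjusted p = 0.00994), by 0.11 without MS172 library 1 or PK9328 library 1 (adjusted p = 0.0709 and 0.0700), and its value was -0.01 under library totals. It also lost the call with the GC and length offset (0.09, adjusted p = 0.0533), and the call held in 15 of 19 alternatives. BID differed by 0.12 ± 0.05 (adjusted p = 0.0485), and the call held in 8 of 19 alternatives. It was lost without DMSO library 1 or 3, MS172 library 2, or PK9328 library 1 or 2 (adjusted p = 0.0510 to 0.304) and turned to -0.02 under library totals. BCL2L11 was lower by 0.34 (SE 0.13, adjusted p = 0.0347), and this was lost without MS172 library 1 or 3, or PK9328 library 1 or 2 (adjusted p = 0.0681 to 0.155). The BCL2L11 call was also lost with DESeq2 (adjusted p = 0.0908), the GC and length offset (adjusted p = 0.0752) and no filter (adjusted p = 0.0515). It held in 12 of 19 alternatives. No difference was called for MCL1 (95% interval -0.07 to 0.07), BCL2 (-0.19 to 0.24), BAD (-0.02 to 0.26) or BIK (-0.92 to 0.41). MCL1 was lower with MS172 under library totals (-0.15, adjusted p = 0.000942), and BAD was higher without PK9328 library 3 (0.21, adjusted p = 0.00588).

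Isoforms were followed for BCL2L1, MCL1 and BCL2L11, with the caveat that the split of reads between transcripts is an estimate whose error the deposited tables do not hold. BCL2L1 had 8 of its 9 transcripts tested. One of them, BCL2L1-203, rose with MS172, where 5.07% of 39248 transcripts tested were called. It codes for BCL-xL as BCL2L1-201 does and differs from it outside the coding sequence, where it has 249 bases of its own (chr20:31722349-31722597) in place of a first exon of 281 bases (chr20:31722618-31722898). These 249 bases join directly to the second exon of BCL2L1-201 and lie inside its first intron. Reads of unspliced RNA over them were not told apart from reads of BCL2L1-203, and their part was not tested.

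BCL2L1-203 had 23.8, 30.8 and 24.5 CPM with DMSO, 63.4, 58.6 and 65.1 CPM with MS172 and 26.4, 24.5 and 36.7 CPM with PK9328. All MS172 libraries lay above all others. Its log2 fold change was 1.24 ± 0.16 against DMSO (adjusted p = 0.00656) and was called in all 17 alternatives. Against PK9328, where 12.5% of transcripts were called, it was 1.09 ± 0.16 (adjusted p = 0.00471) and lost the call with the fragment length covariate (1.54, adjusted p = 0.118). BCL2L1-201 stayed between 71.5 and 91.7 CPM over the 9 libraries, with a 95% interval of -0.18 to 0.17 for MS172 against DMSO. The BCL-xS transcript BCL2L1-202, a pro-apoptotic splice form, stood at 4.17 to 6.50 CPM and was not called against DMSO with MS172 or PK9328 or between them (adjusted p = 0.562, 0.989 and 0.581), while PK9328 against DMSO had 0.838% of transcripts called.

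The share of BCL2L1-203 in the TPM of its gene was 17.8% ± 2.3 (SD, n = 3) with DMSO, 34.3% ± 1.9 with MS172 and 18.8% ± 3.6 with PK9328. MS172 did not overlap the other groups. The test of a transcript against the rest of its gene called it against DMSO (adjusted p = 0.000703) and against PK9328 (adjusted p = 0.00105), where it called 1.07% and 2.24% of 34807 transcripts. The call against PK9328 was lost without PK9328 library 2 (adjusted p = 0.0557) and with the fragment length covariate (adjusted p = 0.184). A log ratio test in limma, added after seeing the data, gave adjusted p = 0.0452 and 0.0229, in comparisons where it called 0.819% and 4.29%. BCL2L1-202 held 3.72%, 3.64% and 3.69% of the gene's TPM in the 3 groups.

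**Figure D4:**
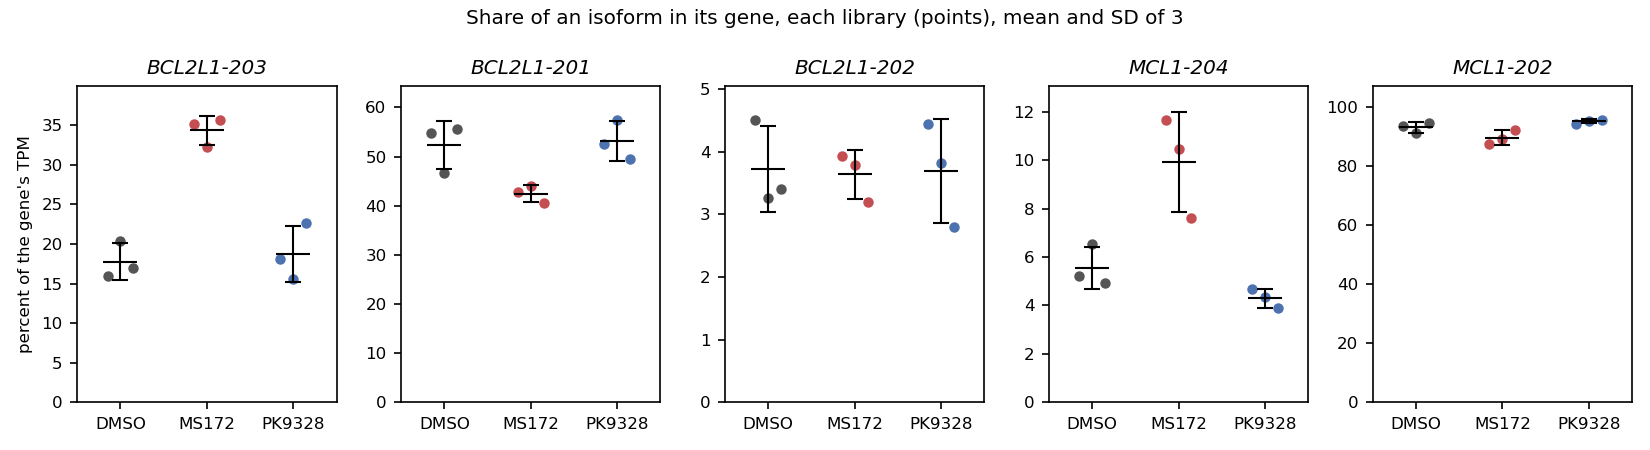
Percent of the gene's TPM on named transcripts of BCL2L1 and MCL1 in each library (points) with mean and SD of 3 libraries (bars), with axes starting at 0. BCL2L1-203 and MCL1-204 are highest in the 3 MS172 libraries, and BCL2L1-202 has group means of 3.64% to 3.72%.

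MCL1 had 3 of its 4 transcripts tested. MCL1-202 codes for the full-length pro-survival protein and held 91% to 94.5% of the gene's TPM with DMSO, 87.5% to 92.2% with MS172 and 94.2% to 95.5% with PK9328. The MS172 range overlapped that of DMSO and lay below that of PK9328. MCL1-204, whose junction is printed above, had 10.6, 13.7 and 9.72 CPM with DMSO, 24.6, 22.7 and 16.2 CPM with MS172 and 9.94, 9.08 and 8.23 CPM with PK9328. Reads over its own 148 bases at the 5′ end can also be assigned to it. Its values are therefore not a count of reads across that junction, which was not tested. MS172 lay above both other groups, although MS172 library 3 was close to the highest DMSO library. MCL1-204 was higher with MS172 by 0.90 ± 0.19 on the log2 scale against DMSO (adjusted p = 0.0364) and by 1.22 ± 0.19 against PK9328 (adjusted p = 0.00551). The first call held in 7 of 17 alternatives and was lost on leaving out any library other than DMSO library 2 and MS172 library 3 (0.78 to 0.90, adjusted p up to 0.123). The second held in 16 of 17, and with the fragment length covariate it was 1.38 with adjusted p = 0.215. As a share of the gene, MCL1-204 was called against PK9328 (adjusted p = 0.0229) and not against DMSO (adjusted p = 0.414). That call was lost without MS172 library 1 or 2 or any PK9328 library (adjusted p = 0.0606 to 0.188), with the replicate block (adjusted p = 0.0582) and with the covariate (adjusted p = 0.909). MCL1-201, which codes for the shorter form known as MCL-1S, had at most 1.09 CPM.

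For BCL2L11, 2 of 23 transcripts passed the filter. The gene had 99 to 181 estimated reads per library, and the transcript that held most of them differed between libraries of 1 group: BCL2L11-206, BCL2L11-220 and BCL2L11-223 led in the 3 DMSO libraries. Its TPM with PK9328 (2.14 ± 0.45) lay above that with DMSO (1.52 ± 0.19) while its CPM did not (5.63 and 5.61), and TPM depends on the lengths of the transcripts to which reads are assigned. The forms of BIM could therefore not be told apart at this depth.

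The other genes of the pathway were counted by list, each list beside the background shares given above. Under library totals, 980 of 13914 genes were called higher and 4474 lower with MS172, and 1474 and 605 with PK9328. With the fragment length covariate, 109 genes were called higher and 66 lower with PK9328. Of 13 further BCL2 family genes, 9 were tested. With MS172, 4 of them rose (BBC3, BCL2L12, BCL2L13 and BNIP3L) and 1 fell (BNIP3, under 1 CPM in every library). Under library totals BCL2L13 (0.03, adjusted p = 0.552) and BNIP3L (0.03, adjusted p = 0.663) lost their calls. With PK9328, 3 BH3-only genes rose (BBC3, PMAIP1 and HRK) and BOK fell, and with the fragment length covariate BBC3 was the 1 of these 4 still called. BBC3 stood at 29.1, 27.8 and 29.3 CPM with DMSO, 37.9, 38.3 and 38.3 CPM with MS172 and 48.5, 45.6 and 47.7 CPM with PK9328. It rose with both compounds (0.41 and 0.72 on the log2 scale), and the groups did not overlap. PMAIP1 rose with PK9328 by 0.52 ± 0.12 (adjusted p = 0.00379) and had -0.02 with MS172. HRK, a BH3-only gene best known from neurons, had 0.56 ± 0.19 with PK9328 (adjusted p = 0.0486) and -0.11 with MS172. All 3 were lower with MS172 than with PK9328 (-0.31, -0.54 and -0.67, adjusted p = 1.08e-05, 0.000715 and 0.00662). With the covariate these differences were -0.30, -0.37 and -0.23 and were not called (adjusted p = 0.0577, 0.354 and 0.754).

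Downstream of the mitochondrion, 4 of 14 apoptosome and caspase genes rose and 2 fell with MS172, against 3 and 1 with PK9328. Under library totals 2 rose and 2 fell with MS172, and 3 rose and 0 fell with PK9328. With the covariate BIRC3 was the 1 gene called with PK9328. The inhibitor of apoptosis gene BIRC3 was 28.6, 32.2 and 29.5 CPM with DMSO, 51.0, 55.0 and 52.4 CPM with MS172 and 41.9, 38.2 and 38.0 CPM with PK9328. It rose with both (0.81 and 0.38), without overlap of the groups. The executioner caspase gene CASP6 fell with MS172 by 0.36, while CYCS, cytochrome c, rose by 0.16 with MS172 and 0.14 with PK9328. CYCS lost the first call under library totals (0.05, adjusted p = 0.342) and the second with the covariate (-0.00, adjusted p = 0.991). Of 7 mitochondrial partner genes, 6 rose with MS172 (median 0.17), and with PK9328 VDAC1, the outer-membrane channel, fell by 0.15. With library totals 1 of these 6 MS172 calls was left, and with the covariate the VDAC1 value with PK9328 was not called (-0.09, adjusted p = 0.649).

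Of 11 death receptor genes, 2 rose and 3 fell with MS172 and 1 rose with PK9328. CASP8, the initiator that cleaves BID, was 53.3, 58.6 and 53.9 CPM with DMSO, 35.5, 37.7 and 36.5 CPM with MS172 and 60.6, 59.7 and 56.8 CPM with PK9328. It fell with MS172 by 0.60 on the log2 scale (adjusted p = 2.61e-10), and CFLAR, the inhibitor of that step, fell by 0.43 (adjusted p = 8.77e-09). The receptor TNFRSF10B rose with both compounds (0.28 and 0.32), and with the covariate its PK9328 value was not called (0.28, adjusted p = 0.0791). Under library totals 1 gene of this list rose and 7 fell with MS172, where 980 of 13914 genes were called higher and 4474 lower. Of 7 genes of MCL-1 turnover, 2 rose with MS172 (the kinases GSK3A and GSK3B, 0.13 and 0.42), BTRC fell by 0.18, and with PK9328 GSK3A fell by 0.14. Both GSK3A calls were lost under library totals (0.03 and -0.11, adjusted p = 0.635 and 0.0641), and the PK9328 call also with the covariate (-0.07, adjusted p = 0.770). Of 8 transcription factors known to act on family genes, 3 rose with MS172, among them ATF4 (0.22) and E2F1 (0.18), and DDIT3 fell by 0.18. E2F1 lost its call under library totals (0.07, adjusted p = 0.427), where 1 of the 8 rose and 3 fell. With PK9328, ATF4 (0.46) and DDIT3 (1.31) rose.

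**Figure D5:**
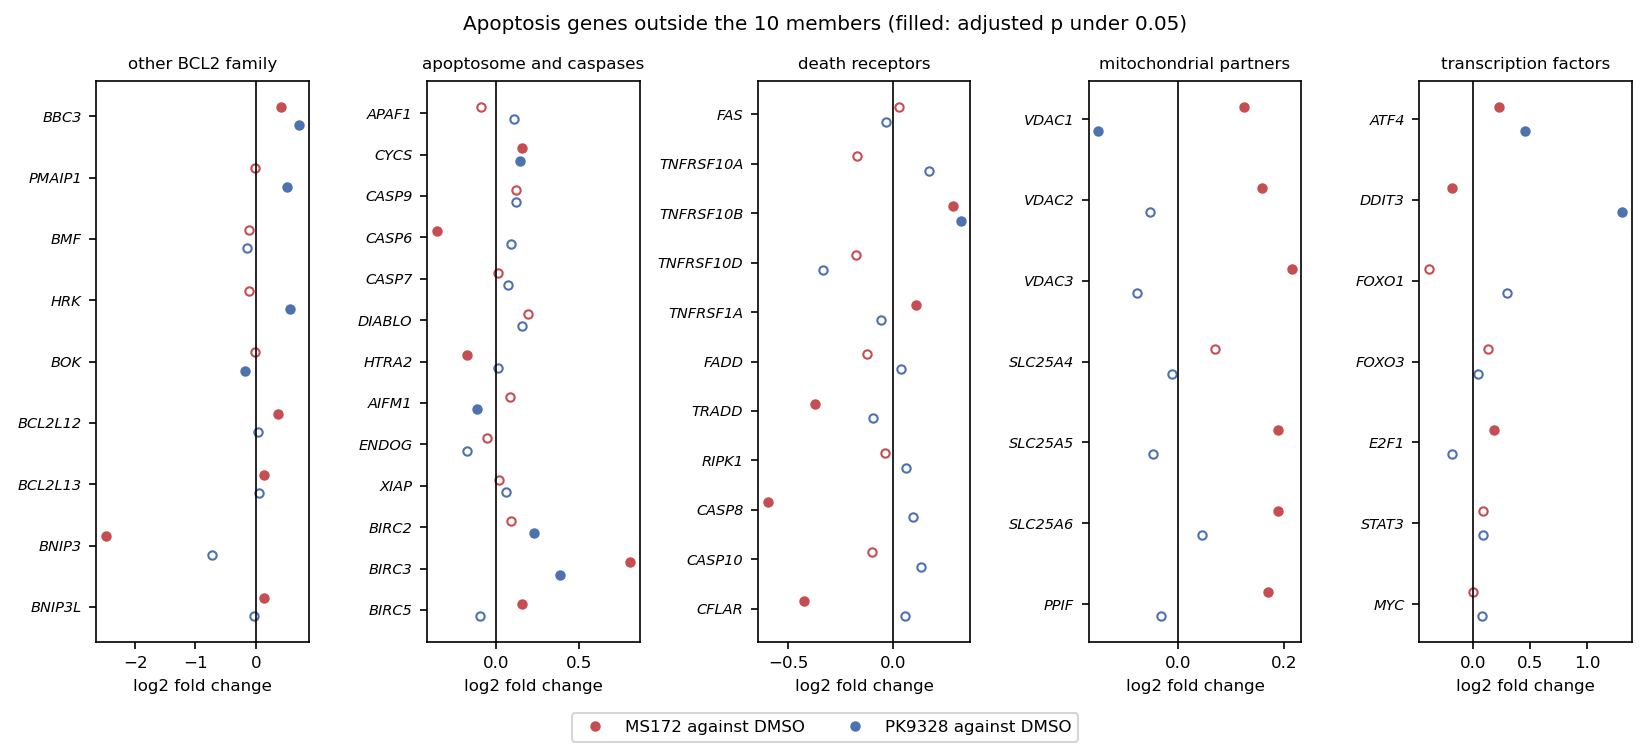
Log2 fold changes against DMSO of genes outside the 10 members, from 5 lists (red MS172, blue PK9328, filled where the adjusted p is under 0.05). In the list of mitochondrial partners 6 of 7 MS172 points are filled, and DDIT3 (1.31) is the largest PK9328 value shown.

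Profiles over the 9 libraries were compared by Pearson's r, as a description, since the libraries share their group means. The genes compared were 11313 protein-coding genes outside the BCL2 family with a mean of at least 1 CPM. This was done for the member of smallest p in each of the 3 comparisons, which were BCL2L1 and BCL2L2. BCL2L1 was most like TNFAIP1 (r = 0.984), RPS20 (0.983) and DHCR7 (0.982). BCL2L2 was most like ZFAND2A (r = 0.992), POLR3C (0.988) and MRM2 (0.986).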

How the data were processed

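Poly(A) RNA of 9 libraries was examined. The members and gene lists were chosen with earlier results of these data known. The authors deposited estimated counts and TPM for 197653 transcripts per library, beside 2 length columns, per the file headers. The deposited TPM sum to 1000000 in a library. FastQC 0.11.8 and hg38 come from the submitters' processing notes. No quantification program is given in the sources used here.

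Transcript identifiers were matched to GENCODE 29 (193348 matched), and those without a match, holding 0.356% to 0.382% of reads, were left out. Counts were summed per gene and rounded. Each comparison used edgeR 4.0.16 (R 4.3.3): robust quasi-likelihood test, TMM, filterByExpr by group, 9 libraries in 1 fit with 6 residual degrees of freedom, two-sided, Benjamini-Hochberg over all genes or transcripts tested, called at an adjusted p under 0.05. Transcript shares were tested with diffSpliceDGE. A limma 3.58.1 log ratio test of the shares (0.5 reads added) was added after seeing the data, as were library totals in place of TMM. Fragment length was taken as the difference of the 2 length columns, over transcripts of 3000 bases or more. Other alternatives were DESeq2 1.42.0, RLE factors, filters, a replicate block, a GC and length offset (mgcv 1.9.3), length-scaled TPM and each library left out. The 10 members and all listed genes could be named whatever their result. Some listed genes are counted with their list but are not reported here. Other genes were named as the 3 with the highest r.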

Additional observations from a re-analysis of the deposited data

How the results depend on the processing

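Replicate numbers did not pair the libraries: same-numbered libraries correlated at -0.057 to 0.017 in their deviations from group means. With the replicate block, 1 member was called with PK9328 against DMSO in place of 2, and 1 transcript share with MS172 against PK9328 in place of 2. The count of members with PK9328 was also 1 with RLE factors, length-scaled TPM, only the libraries compared and DESeq2, 4 with library totals and with the GC and length offset, 0 with the fragment length covariate, and 1 to 3 with a library left out. With MS172 against PK9328, 3 to 7 members were called with a library left out, where 5651 to 6770 of 14130 to 14192 genes tested were called. Over all genes, PK9328 against DMSO gave 2168 calls with RLE factors and 1911 with DESeq2, in place of 2151. It gave 2140 with only the libraries compared, 1884 with the replicate block and 1080 with length-scaled TPM. Library totals gave 2079, the GC and length offset 2495 and the covariate 175. With a library left out this comparison gave 1384 to 2215 (1384 without DMSO library 1, 1400 without PK9328 library 2). MS172 against PK9328 gave 2474 with the covariate. The covariate follows the PK9328 group closely, so fragment length and this compound cannot be told apart in these libraries.

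Of the transcripts followed, 1 in place of 2 was called with MS172 against DMSO under library totals, the covariate and only the libraries compared, and 1 to 2 with a library left out. With MS172 against PK9328, the count was 0 with the covariate and 4 with DESeq2. Shares called in that comparison numbered 0 with the covariate, 4 in the log ratio test and 0 to 2 with a library left out (0 without PK9328 library 2). For these alternatives other than the log ratio test, the share over all transcripts is not given here, so the counts carry no background. Only 1 of 10 members kept its rank when CPM replaced TPM, since CPM carries transcript length.

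Among the 10 members and the named transcripts of MCL1 and BCL2L1, no value past the threshold in the edgeR fit changed sign apart from BAK1 and BID with MS172 against PK9328 under library totals (-0.0077 and -0.023). Log2 fold changes that were not called crossed 0 as follows, and the cause was not tested. Under library totals, values with MS172 against DMSO were -0.00092 for BID, -0.033 for MCL1 and -0.092 for MCL1-202, with PK9328 0.014 for BAX and 0.022 for BID, and between compounds -0.021 for BAD and -0.12 for BCL2. With the GC and length offset they were 0.021 for BCL2 with MS172, and -0.040 for BAD and 0.047 for MCL1 between compounds. With length-scaled TPM they were 0.0033 for BCL2 with MS172, 0.0020 for BAX and 0.11 for BCL2 with PK9328, and 0.0099 for MCL1 and -0.11 for BCL2 between compounds. With the covariate they were -0.014 for BAK1, 0.049 for BID, -0.057 for BAD and -0.27 for BCL2L1-203 with PK9328, and -0.047 for BCL2L1-202 between compounds. RLE factors and DESeq2 each gave 0.011 for MCL1 between compounds and 0.0018 and 0.0021 for BCL2L1-201 with MS172, where no filter gave 0.0064.

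With a library left out, values with MS172 ranged from -0.13 to 0.0015 for BCL2, -0.0043 to 0.038 for MCL1-202 and -0.065 to 0.034 for BCL2L1-201. With PK9328 they ranged from -0.050 to 0.012 for BAX, -0.032 to 0.011 for BID, -0.39 to 0.061 for BIK, -0.066 to 0.086 for BCL2L11, -0.061 to 0.21 for BCL2L1-202 and -0.050 to 0.28 for BCL2L1-203. Between compounds they ranged from -0.013 to 0.0034 for MCL1 and -0.055 to 0.066 for BCL2. By share of reads in place of TPM, BCL2L1-203 held 21.6%, 39.7% and 22.4% with DMSO, MS172 and PK9328. Depth limits BIK and the transcripts of BCL2L11.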
